A study of Mus musculus with 81 samples.

Results

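The immunity-related GTPases (IRGs) described here were 6 mouse genes chosen by symbol, Irgm1, Irgm2, Igtp, Iigp1, Tgtp1 and Tgtp2, and they stood among 19327 genes tested in at least 1 experiment and 54079 genes listed in every library. RNA-seq gene counts were collected from 81 libraries of mouse macrophages and their progenitors, of which 79 fell into 27 groups in 5 experiments and 2 carried conflicting labels. WT mice were H3f3a fl/fl H3f3b fl/fl and carried no cre, and H3.3cKO mice (cKO in the plots) carried the same floxed alleles plus LysM cre/cre. The floxed genes encode histone H3.3, a variant that enters chromatin outside of DNA replication. LysM-Cre is expressed from the Lyz2 locus in macrophages and granulocytes, so cells of other lineages in a culture keep the floxed genes and H3.3cKO cells also lack Lyz2. The study describes its mice as derived from a C57BL/6 background. The Sting, Mavs and Irf7 knockout strains that it lists for its crosses were of mixed or congenic origin. The groups were WT and H3.3cKO bone marrow-derived macrophages (BMDMs, grown from marrow in L929-conditioned medium) at days 3, 5 and 7, with 3 libraries each, and at day 8 with or without 12 h of IFNγ, with 3 WT and 2 H3.3cKO libraries each. They also included freshly isolated peritoneal macrophages, and BMDMs grown with no antibody, an isotype control or a blocking antibody to the type I interferon receptor IFNAR1, again with 3 libraries each. A last experiment held 3 sets of WT and H3.3cKO BMDMs and the double knockouts H3.3cKO:StingKO, H3.3cKO:MavsKO and H3.3cKO:Irf7KO, in which H3.3cKO mice also carried a knockout of Sting, Mavs or Irf7, with 3 libraries each and no day given in the labels for the double knockouts. The titles of the 3 sets and of the antibody groups give no day either. For the antibody assay, the study's methods describe antibody from the start of culture and lysis on day 6.

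IRGs are large GTPases that macrophages make in response to interferon and that restrict intracellular bacteria and parasites such as Toxoplasma. Type II interferon (IFNγ) acts on genes mainly through GAS elements, and type I interferon through interferon-stimulated response elements (ISREs), which are bound by a complex that holds STAT2 and IRF9. Irgm1, Irgm2 and Igtp (also called Irgm3) are the regulatory members, which sit on the membranes of the cell's own organelles and keep the effector members in an inactive state there. Iigp1 (Irga6) and the closely related Tgtp1 and Tgtp2 (both Irgb6) are effector members, which load onto the vacuole around a parasite and disrupt it.

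The difference between both classes is written in the nucleotide-binding loop, and the 24 bases coding for it are shown because the text below names the genes by class. The classes did not separate in every comparison. Positions are in GRCm38, coding strand, with the codon that gives the class its name in capitals, ATG for methionine in the regulatory and AAG for lysine in the effector members.
Irgm1, chr11:48866761-48866784, minus strand, codons 83 to 90: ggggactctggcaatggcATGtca
Irgm2, chr11:58219695-58219718, plus strand, codons 83 to 90: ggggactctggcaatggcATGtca
Igtp, chr11:58206275-58206298, plus strand, codons 91 to 98: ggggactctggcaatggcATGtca
Tgtp1, chr11:48987667-48987690, minus strand, codons 63 to 70: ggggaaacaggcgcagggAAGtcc
Tgtp2, chr11:49059534-49059557, minus strand, codons 63 to 70: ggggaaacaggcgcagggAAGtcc
The 3 regulatory genes were identical over these 24 bases, and so were Tgtp1 and Tgtp2. Iigp1 carried a lysine codon at codon 82.

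Promoter windows are shown because the groups include cells given IFNγ and cells with the type I interferon receptor blocked. RefSeq promoters (GRCm38.p6, 250 bases before to 50 after the start) were matched for 5 of the 6 genes and searched on both strands for the ISRE letters (a pair of GAAA set apart by 2 bases of any kind) and the GAS letters TTCNNNGAA, which are in capitals below.
Irgm1, chr11:48871420-48871465, minus strand: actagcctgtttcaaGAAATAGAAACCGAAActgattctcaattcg
Irgm2, chr11:58214887-58214937, plus strand: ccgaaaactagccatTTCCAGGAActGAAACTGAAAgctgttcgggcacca
Igtp, chr11:58199496-58199546, plus strand: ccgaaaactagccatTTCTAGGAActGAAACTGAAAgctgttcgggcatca
Tgtp1, chr11:48992299-48992349, minus strand: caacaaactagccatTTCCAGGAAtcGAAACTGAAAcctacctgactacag
Tgtp2, chr11:49064258-49064308, minus strand: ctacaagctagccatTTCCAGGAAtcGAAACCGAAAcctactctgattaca
Irgm2, Igtp, Tgtp1 and Tgtp2 each held a GAS match, 2 further bases and then an ISRE match, and both matches lay upstream of the start. Irgm1 held 2 overlapping ISRE matches and no GAS match in its window. Of 32851 RefSeq promoters of 300 bases, 3.44% held the ISRE letters, 8.30% the GAS letters and 0.454% both.

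Iigp1 lay on the plus strand of chromosome 18 and the other 5 genes on chromosome 11 (GRCm38, GENCODE vM21). Irgm1 spanned 48861968 to 48871683, Tgtp1 48985327 to 48994172 and Tgtp2 49057194 to 49064206, all on the minus strand, while Igtp spanned 58199556 to 58207591 and Irgm2 58199618 to 58222782 on the plus strand. The promoter windows shown for Irgm1, Irgm2 and Tgtp1 lay inside these spans, so they do not mark the upstream end of the gene. Igtp and Irgm2 shared 162 exon bases, and reads there were assigned to neither gene. Tgtp1 and Tgtp2 differed at 4 of 1245 coding bases (99.7% identity, longest identical run 510 bases), so reads that fit both were dropped and the values of both genes are uncertain, above all the low ones of Tgtp1. Both also overlap Olfr56 on the other strand, and Tgtp1 overlaps Gm12185. The counts did not use strand, so reads of overlapping genes cannot be told apart.

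Depth ran from 3614967 to 45564225 gene counts per library. The labels were checked first. H3f3a ranged from 33.6 to 93.8 CPM (counts scaled to the effective library size) in WT and from 1.21 to 15.3 CPM in H3.3cKO libraries, and Lyz2 was at 4465 CPM or more in WT and at 81.9 CPM or less in H3.3cKO. H3f3b was lower in H3.3cKO without overlap only in the antibody experiment (16.7 to 67.8 against 295 to 468 CPM). It overlapped between genotypes in the time course (149 to 222 against 181 to 280 CPM) and at day 8 (173 to 325 against 206 to 316 CPM). The same held in peritoneal macrophages (302 to 361 against 355 to 536 CPM) and the BMDM sets (187 to 220 against 200 to 285 CPM). Sting (Tmem173) fell to 5.01 to 6.10 CPM in H3.3cKO:StingKO against 68.2 to 91.6 CPM in the H3.3cKO sets. Irf7 was at 98.3 to 112 CPM in H3.3cKO:Irf7KO against 249 to 470 CPM in the H3.3cKO sets. This lay within the WT range of the same experiment (36.6 to 155 CPM), so the count shows a fall against H3.3cKO but not below WT. Mavs at 37.2 to 37.9 CPM in H3.3cKO:MavsKO overlapped the H3.3cKO sets (36.0 to 51.6 CPM), so its count does not check that label. All 8 macrophage markers had counts in every group. One library stood apart: replicate 1 of H3.3cKO BMDMs with IFNγ had the lowest depth, 3614967 gene counts. Of its reads 78.1% were not counted for a gene, and 57.1% were unmapped, against 12.6% to 18.3% unmapped in the other assigned day 8 libraries.

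Over the course of differentiation, the comparison asked when H3.3cKO cells departed from WT. Of the 6 IRGs 5 were upregulated in H3.3cKO progenitors at day 3 and the same 5 at day 5, from 4.17-fold for Irgm2 at day 5 to 142-fold for Iigp1 at day 3, and none passed the test at day 7. The called genes were Irgm1, Irgm2, Igtp, Iigp1 and Tgtp2. Across all genes, edgeR's quasi-likelihood test (Benjamini-Hochberg adjusted p under 0.05) called 7.73% at day 3, with 5.19% higher in H3.3cKO, and 2.83% at day 5, with 2.2% higher.

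**Figure D1:**
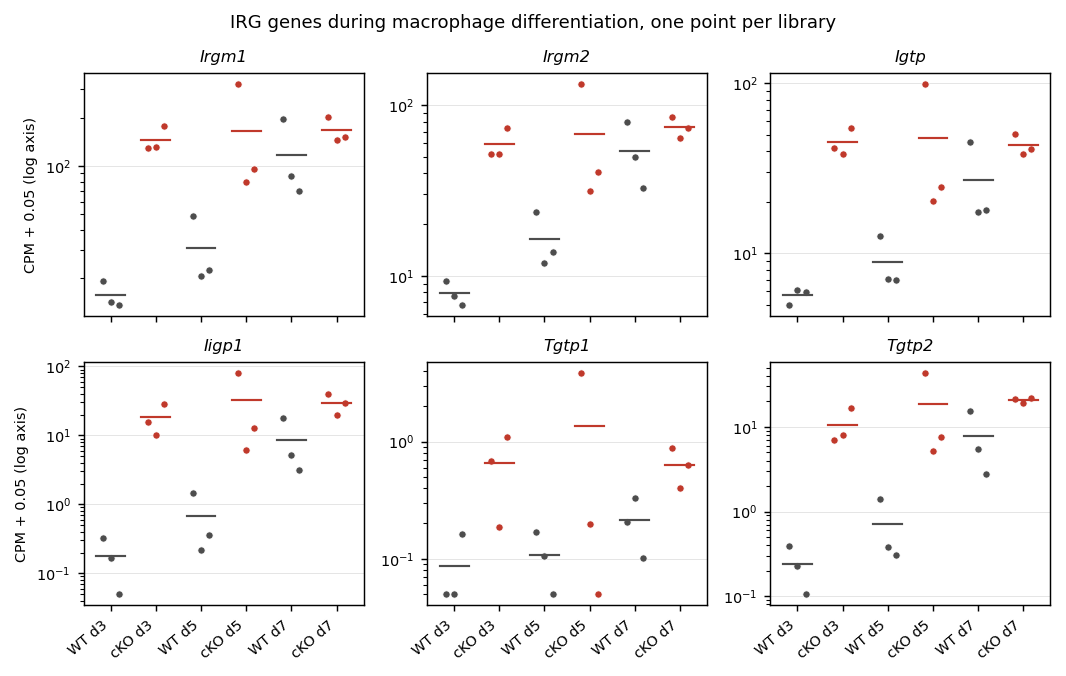
CPM of each IRG in WT (grey) and H3.3cKO (red) BMDMs at days 3, 5 and 7. Points are libraries, horizontal lines are group means, and the log axis shows CPM plus 0.05. WT means lie nearer to those of H3.3cKO at day 7 than at day 3. At day 7 the mean of Irgm1 was 117 CPM in WT, with 1 library at 196 CPM, and 167 CPM in H3.3cKO.

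At day 3, Irgm1, which guards host membranes and is needed for control of mycobacteria, measured 19.2, 14.1 and 13.5 CPM in the 3 WT libraries and 129, 132 and 178 CPM in the 3 H3.3cKO libraries. Every H3.3cKO library lay above every WT library. This gave a log2 fold change of 3.23 ± 0.53 (SE) with an adjusted p = 0.00148 (by edgeR's quasi-likelihood test, the test behind every adjusted p of single genes in the text). Irgm2 measured 9.34, 7.57 and 6.68 CPM in WT and 51.5, 51.9 and 73.2 CPM in H3.3cKO, a log2 fold change of 2.91 ± 0.48 (adjusted p = 0.00149). Igtp rose from 4.91, 6.04 and 5.90 CPM to 41.6, 38.6 and 54.5 CPM, a log2 fold change of 2.996 ± 0.533 (adjusted p = 0.00263). These 3 regulatory genes thus moved by 7.50- to 9.37-fold.

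The effector genes had few counts in WT progenitors, 6 for Iigp1 and 9 for Tgtp2 over the 3 libraries at day 3. Iigp1 had 0.273, 0.117 and 0 CPM in WT at day 3 against 15.8, 10.2 and 28.6 CPM in H3.3cKO, a log2 fold change of 7.15 ± 1.32 (adjusted p = 0.00334). Tgtp2 had 0.341, 0.176 and 0.0564 CPM in WT against 6.85, 8.005 and 16.8 CPM in H3.3cKO, a log2 fold change of 5.80 ± 1.08 (adjusted p = 0.00365). Tgtp1 had 2 counts over the 3 WT libraries and 32 over the 3 H3.3cKO libraries, a ratio of 15.96 with a 95% counting interval of 4.07 to 137 (exact binomial, counting error only). It missed the threshold (adjusted p = 0.202). Without 1 library, Iigp1 ran from 6.53 (without WT replicate 3) to 8.11 (without WT replicate 1) and Tgtp2 from 5.29 to 6.41, and the same 5 genes were called each time. None of the 6 genes overlapped between genotypes at day 3, and 18.3% of all genes tested were likewise higher in every H3.3cKO library. The median log2 fold change was 2.996 over the regulatory and 5.80 over the effector genes, against 0.04 over all genes tested.

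At day 5 replicate 1 of H3.3cKO stood far above the other libraries. Irgm1 measured 323, 79.8 and 95.4 CPM in H3.3cKO and 49.1, 20.7 and 22.5 CPM in WT, a log2 fold change of 2.43 ± 0.51 (adjusted p = 0.0167). Iigp1 measured 79.9, 6.08 and 12.9 CPM in H3.3cKO and 1.43, 0.166 and 0.310 CPM in WT, a log2 fold change of 5.72 ± 1.05 (adjusted p = 0.0101). Replicate 1 was the highest library of both genotypes for both genes, and the genotypes still did not overlap, as was so for all members but Tgtp1 and for 15.4% of all genes (H3.3cKO higher). Tgtp2 measured 43.0, 5.199 and 7.52 CPM against 1.37, 0.331 and 0.258 CPM (log2 fold change 4.85 ± 0.90, adjusted p = 0.0109). Irgm2 and Igtp were higher by 2.06 ± 0.45 and 2.43 ± 0.51 on the log2 scale (adjusted p = 0.022 and 0.0179). Tgtp1 overlapped, with 67 counts in H3.3cKO, nearly all in replicate 1, against 3 in WT, a ratio of 22.1 (95% counting interval 7.26 to 110.1). Without WT replicate 1, the log2 fold change of Iigp1 was 7.05. Without replicate 1 of H3.3cKO, 2 genes were called at day 5, Iigp1 (3.93, adjusted p = 0.0407) and Tgtp2 (3.31, adjusted p = 0.0475). Without WT replicate 2 or WT replicate 3 none was called, although the log2 fold changes stayed between 1.88 and 5.38 for the other 5 genes, while 102 and 73 of all genes were still called, and none was called in a fit of the day 5 libraries alone. Over all alternatives the adjusted p of Iigp1 ran from 5.46e-07 to 0.0881 and that of Tgtp2 from 1.02e-06 to 0.0889.

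At day 7 the fitted log2 fold changes were smaller than at day 3. Irgm1 measured 196, 86.2 and 69.5 CPM in WT and 202, 146 and 152 CPM in H3.3cKO, with a log2 fold change of 0.51 ± 0.48 (adjusted p = 0.636). WT replicate 1 lay within the H3.3cKO range. Iigp1 measured 17.5, 5.18 and 3.10 CPM in WT and 39.5, 19.9 and 29.4 CPM in H3.3cKO, with a log2 fold change of 1.78 ± 0.81 (adjusted p = 0.283). Tgtp2 measured 15.2, 5.46 and 2.69 CPM in WT and 21.5, 19.1 and 21.7 CPM in H3.3cKO (1.41 ± 0.71, adjusted p = 0.338). With 1 library left out, the log2 fold change of Irgm1 ran from 0.25 to 1.10. That of Iigp1 ran from 1.38 to 2.86 and that of Tgtp2 from 1.01 to 2.37, with 0 called. The 3 effector genes did not overlap between genotypes, as was so for 9.5% of all genes, and the 3 regulatory genes did. With edgeR 0 of the 6 were called at day 7 (1.4% of all genes), 1 had an unadjusted p under 0.05, and DESeq2 called 0.

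Between days 5 and 7 the means moved in WT. From day 5 to day 7, mean Irgm1 went from 30.8 ± 15.9 to 117 ± 68.9 CPM (SD, n = 3) in WT and from 166 ± 136 to 167 ± 30.7 CPM in H3.3cKO. Mean Iigp1 went from 0.636 ± 0.694 to 8.60 ± 7.80 CPM in WT, a log2 fold change of 3.79 ± 1.04 (adjusted p = 0.103), and mean Tgtp2 from 0.654 ± 0.624 to 7.77 ± 6.56 CPM (3.60 ± 0.90, adjusted p = 0.0811). In WT all but Tgtp1 were higher in every day 7 than in every day 5 library, as were 7.57% of all genes. edgeR called 0 of the 6 between these days in WT (0.238% of all genes), with 5 at an unadjusted p under 0.05 and 5 by DESeq2. Without WT day 7 replicate 1, the highest, the log2 fold change of Irgm1 was 1.34 and that of Iigp1 2.72 (neither called), and without WT day 7 replicate 3 edgeR called 4 of the 6. In H3.3cKO edgeR called 0 of the 6 from day 3 to day 5 (3.59% of all genes) and 0 from day 5 to day 7 (0.0564%), with 0 at an unadjusted p under 0.05 and 0 by DESeq2 in both. From day 3 to day 5 in WT edgeR called 0 (2.64% of all genes), 1 had an unadjusted p under 0.05 and DESeq2 called 0, while Irgm1, Irgm2 and Igtp were higher in every day 5 than in every day 3 library, as were 17.2% of all genes.

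The narrowing itself was tested as an interaction. Between day 3 and day 7 the H3.3cKO effect changed by −2.72 ± 0.69 for Irgm1, −2.44 ± 0.63 for Irgm2, −2.31 ± 0.70 for Igtp, −5.37 ± 1.64 for Iigp1 and −4.39 ± 1.35 for Tgtp2 on the log2 scale. edgeR called 0 of the 6 (adjusted p from 0.106 to 0.715, with 0.0439% of all genes called), 5 had an unadjusted p under 0.05, and DESeq2 called 5. With the replicate number as a block, a pairing that held between genotypes at days 3 and 7 but not between days in WT, Irgm1 (adjusted p = 0.0168) and Irgm2 (adjusted p = 0.0313) were called. Over all alternatives the adjusted p ran from 0.000902 to 0.232 for Irgm1 and from 0.00132 to 0.232 for Irgm2.

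Other lists of the pathway were counted in the same cultures, to be read against the 7.73% of all genes called at day 3. The guanylate-binding proteins (GBPs), interferon-induced GTPases that act on vacuoles together with IRGs, rose in H3.3cKO for 8 of 8 tested at day 3, 7 of 8 at day 5 and 0 of 8 at day 7, with Gbp6 at 7.48 ± 1.34 and Gbp9 at 5.09 ± 0.69 on the log2 scale at day 3. Other genes of the IRG type rose for 7 of 9 at day 3, among them Gm12250, which encodes the effector Irgb10, at 4.22 ± 0.67. Among the transcription factor genes Stat2, Irf1, Irf2, Irf8 and Irf9, 3 rose at days 3 and 5, Stat2 (2.83 ± 0.44 at day 3), Irf1 and Irf9, while Irf2 (−0.07 ± 0.11) and Irf8 (0.01 ± 0.18) were not called. Usp18, which shuts down type I interferon receptor signalling, rose by 5.82 ± 0.81 and the JAK inhibitor Socs1 by 1.59 ± 0.37. Of 7 receptor chains and kinases, Jak2 rose by 0.74 ± 0.16 and the receptor gene Ifnar1 fell by 0.42 ± 0.10 on the log2 scale at day 3. Of 13 vacuole targeting genes 1 rose, Trim21 (1.60 ± 0.29), a share near that of all genes called higher (5.19%). Of 18 interferon genes only Ifnb1, which encodes IFNβ, was high enough to test, and it rose at day 3 (5.77 ± 1.59, adjusted p = 0.035).

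Marker genes of other cells were read in the same groups. At day 3 the summed level of 9 neutrophil and granule genes, all with counts, was 1679 to 3216 CPM in WT and 2902 to 4490 CPM in H3.3cKO, and that of 6 B cell genes, all with counts, 13.4 to 14.3 CPM and 27.4 to 57.4 CPM. Of these, 0 of 9 neutrophil and 3 of 6 B cell genes were called higher in H3.3cKO. The neutrophil sums were 498 to 597 and 537 to 1848 CPM at day 5 and 75.6 to 133 and 94.1 to 291 CPM at day 7. On each of these days 3 of 9 were called higher in H3.3cKO, against 2.2% of all genes called higher at day 5 and 1.4% called at day 7. Sums of 5 stromal genes, all with counts, were 13.3 to 42.9 CPM in WT and 68.3 to 96.7 CPM in H3.3cKO at day 5. At day 7 they were 4.43 to 41.4 and 87.9 to 126 CPM, with 0 of 4 tested called on either day. Of 8 T and NK cell genes, the usual sources of IFNγ, 6 had counts at day 3 in each genotype and summed to 3.89 to 6.57 CPM in WT and 5.23 to 9.37 CPM in H3.3cKO, with Ncr1 at 0 in both, Gzmb at 0 in WT and Gzma at 0 in H3.3cKO, and 0 of the 1 gene tested was called. Their part in the result was not tested. In bulk RNA, fewer cells of a type and less RNA per cell cannot be told apart.

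The day 8 experiment asked how both genotypes responded to IFNγ. Before IFNγ, Iigp1 was 9.71-fold higher in H3.3cKO. After 12 h of IFNγ all 6 IRGs rose in both genotypes, by 15.2-fold for Irgm2 to 1267-fold for Iigp1 in WT and by 5.95-fold for Irgm1 to 323-fold for Tgtp1 in H3.3cKO. With IFNγ none of the 6 differed between genotypes past the threshold, and that statement rests on 2 H3.3cKO libraries that disagreed with each other.

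**Figure D2:**
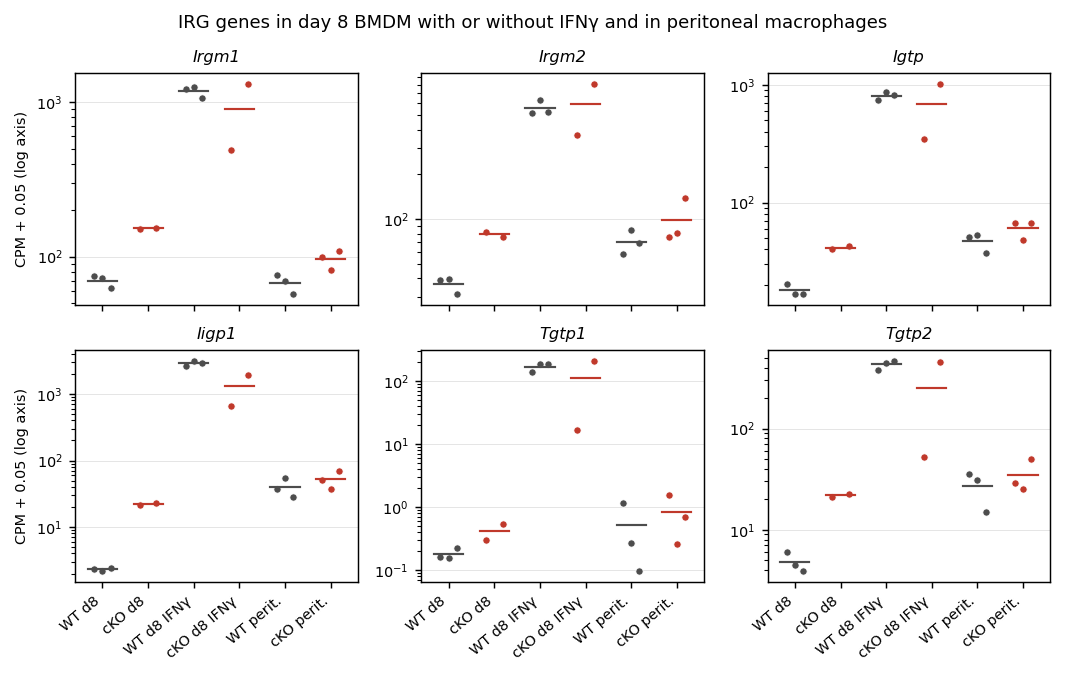
CPM of each IRG in day 8 BMDMs without and with IFNγ and in peritoneal macrophages, in WT (grey) and H3.3cKO (red). Points are libraries, horizontal lines are group means, and the log axis shows CPM plus 0.05. The 2 H3.3cKO libraries with IFNγ lie apart, with Tgtp2 at 52.5 and 453 CPM, while peritoneal macrophages of both genotypes overlap for 5 of the 6 genes. Both experiments were scaled separately.

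Untreated at day 8, Iigp1 measured 2.30, 2.12 and 2.36 CPM in WT and 21.5 and 22.8 CPM in H3.3cKO, a log2 fold change of 3.28 ± 0.40 (adjusted p = 0.00485). It was the 1 of 6 genes called, against 0.612% of all genes, 0.505% higher in H3.3cKO. Tgtp2 measured 5.93, 4.46 and 3.85 CPM in WT and 21.1 and 22.5 CPM in H3.3cKO (2.20 ± 0.64, adjusted p = 0.306). Irgm1 measured 74.9, 72.4 and 62.2 CPM in WT and 151 and 154 CPM in H3.3cKO (1.13 ± 0.32, adjusted p = 0.264). Both H3.3cKO libraries lay above all WT libraries for each of the 6 genes, as was so for 18% of all genes. Of the 6 genes 5 had an unadjusted p under 0.05, and DESeq2 called 3, Irgm2, Iigp1 and Tgtp2. Without H3.3cKO replicate 2 no member was called. The adjusted p of Iigp1 ran from 1.91e-35 to 0.523 over all alternatives.

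With IFNγ, WT Iigp1 reached 2614, 3156 and 2899 CPM, a log2 fold change over untreated of 10.31 ± 0.47 (adjusted p = 2.83e-07). WT Tgtp1, at 0.110, 0.106 and 0.175 CPM or 4 counts in all untreated, reached 141, 185 and 185 CPM (10.17 ± 1.02, adjusted p = 3.85e-05), and WT Tgtp2 reached 383, 449 and 468 CPM (6.52 ± 0.68, adjusted p = 4.95e-05). Igtp rose by 5.49 ± 0.37, Irgm1 by 4.08 ± 0.32 and Irgm2 by 3.93 ± 0.28 (adjusted p from 3.03e-06 to 7.56e-06). All 6 were called, against 40.1% of all genes called and 20% called higher, and all 6 lay above every untreated library, as did 31.5% of all genes. The median log2 fold change was 10.17 over the effector and 4.08 over the regulatory genes, against −0.01 over all genes.

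In H3.3cKO with IFNγ, replicate 1 lay well below replicate 2 for every IRG. Iigp1 measured 665 and 1943 CPM, Tgtp1 16.9 and 212 CPM and Tgtp2 52.5 and 453 CPM, while Irgm1 measured 493 and 1315 CPM, Irgm2 369 and 813 CPM and Igtp 345 and 1020 CPM. Replicate 1 is the shallow library with 57.1% of its reads unmapped. All 6 rose over untreated (33.6% of all genes called and 17.2% higher, with 27.5% above every untreated library), with log2 fold changes of 2.57 ± 0.37 for Irgm1, 2.91 ± 0.33 for Irgm2, 4.05 ± 0.42 for Igtp, 5.88 ± 0.46 for Iigp1, 8.33 ± 1.10 for Tgtp1 and 3.56 ± 0.71 for Tgtp2 (adjusted p from 1.64e-05 to 0.00378). All 6 also rose without replicate 1, by 3.14 for Irgm1 to 9.19 for Tgtp1, and without replicate 2, by 1.24 for Tgtp2 to 5.49 for Tgtp1. In neither genotype was any of the 6 called once the 2 H3.3cKO libraries with conflicting labels were added to the groups that their titles give. That placement put a library with 2074 CPM of Iigp1 into the untreated group and one with 15.3 CPM into the IFNγ group. All groups share 1 estimate of the spread, so the fit by title cannot show whether the response to IFNγ is weak or strong.

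Between genotypes under IFNγ, both H3.3cKO libraries lay below all WT libraries for Iigp1 alone (−1.15 ± 0.35, adjusted p = 0.0906), as was so for 18.7% of all genes. edgeR called 0 of the 6 (4.83% of all genes), 1 had an unadjusted p under 0.05, and DESeq2 called 1, Iigp1. Each H3.3cKO library decided the outcome: without replicate 1, Iigp1 was lower by −0.55 (adjusted p = 0.0334) and Irgm2 higher by 0.57 (adjusted p = 0.0374), and without replicate 2 all 6 were called lower, from −0.62 for Irgm2 to −3.36 for Tgtp1. The adjusted p over all alternatives ran from 1.03e-05 to 0.682 for Iigp1 and from 0.0157 to 1 for Irgm2.

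The difference between genotypes in the response to IFNγ was tested as an interaction. It was −4.43 ± 0.54 for Iigp1 (adjusted p = 0.0892) and −2.96 ± 0.89 for Tgtp2 (adjusted p = 0.455) on the log2 scale, and −1.51 ± 0.45 for Irgm1, −1.44 ± 0.49 for Igtp, −1.02 ± 0.40 for Irgm2 and −1.84 ± 2.19 for Tgtp1. edgeR called 0 of the 6 and 0% of all genes, 5 of the 6 had an unadjusted p under 0.05, and DESeq2 called 1, Iigp1. Without replicate 1 of H3.3cKO with IFNγ, Iigp1 (−3.80, adjusted p = 4.44e-05) and Tgtp2 (−2.10, adjusted p = 0.00836) were called, and without replicate 2 all 6 were. Over all alternatives the adjusted p ran from 4.06e-34 to 0.657 for Iigp1 and from 2.5e-14 to 0.89 for Tgtp2.

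The pathway lists gave the setting of this response. All 11 GBPs rose with IFNγ in both genotypes, led in WT by Gbp2b (12.13 ± 0.49) and Gbp11 (10.20 ± 0.39), and 0 of 11 differed between genotypes under IFNγ. Irf1, an activator of IRG genes, rose by 4.98 ± 0.18 in WT and 4.27 ± 0.22 in H3.3cKO, and Socs1 by 6.995 ± 0.235 and 6.55 ± 0.28. The receptor gene Ifngr1 fell by 0.80 ± 0.22 in WT and by 1.61 ± 0.28 in H3.3cKO on the log2 scale. Of 14 vacuole targeting genes 5 rose and 1 fell in WT, a share near the 40.1% of all genes called, with Ubd, a ubiquitin-like protein, at 7.58 ± 0.86. Between genotypes under IFNγ, Usp18 was higher and Socs3 lower in H3.3cKO. The summed level of 5 dendritic cell genes was 50.5 to 74.6 CPM in WT and 24.1 to 36.4 CPM in H3.3cKO with IFNγ against at most 2.11 CPM untreated, with 4 of 5 at counts above 0 and Siglech at 0 in all 4 groups, and their part in the result was not tested.

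Peritoneal macrophages asked whether the difference held in cells taken from the animal. Irgm1 measured 75.5, 69.8 and 57.3 CPM in WT and 99.9, 82.1 and 109 CPM in H3.3cKO, a log2 fold change of 0.52 ± 0.18 (adjusted p = 0.36). Iigp1 measured 37.3, 55.2 and 28.6 CPM in WT and 50.4, 37.0 and 68.6 CPM in H3.3cKO (0.36 ± 0.29, adjusted p = 0.798). Only Irgm1 did not overlap, as was so for 8.47% of all genes. edgeR called 0 of the 6 (0.971% of all genes), 1 had an unadjusted p under 0.05, and DESeq2 called 0. All 6 log2 fold changes were above 0, from 0.35 to 1.13. Of 10 GBPs 1 rose, Gbp4. The summed level of 8 T and NK cell genes, all with counts, was 6.29 to 31.8 CPM in WT and 11.3 to 49.7 CPM in H3.3cKO, and their part was not tested. These libraries were made with another kit than the BMDM libraries, so their levels are not set against those of BMDMs.

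The antibody experiment asked whether the rise in H3.3cKO depended on the type I interferon receptor. Without antibody, all 5 IRGs tested were upregulated in H3.3cKO, from 2.72-fold for Irgm1 to 31.4-fold for Iigp1. With control antibody 3 were, Irgm1, Iigp1 and Tgtp2, and with IFNAR1 antibody 2 were, Iigp1 and Tgtp2. The background was 7.1% of all genes without antibody (3.39% higher in H3.3cKO), 4.45% with control antibody (2.88% higher) and 0.675% with IFNAR1 antibody (0.477% higher). In WT, Iigp1 rested on 8, 9 and 1 counts and Tgtp2 on 11, 4 and 7 counts over the 3 libraries of the no antibody, isotype and IFNAR1 antibody groups. Tgtp1 was too low to be tested, at 0.542 CPM or less in all 18 libraries.

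**Figure D3:**
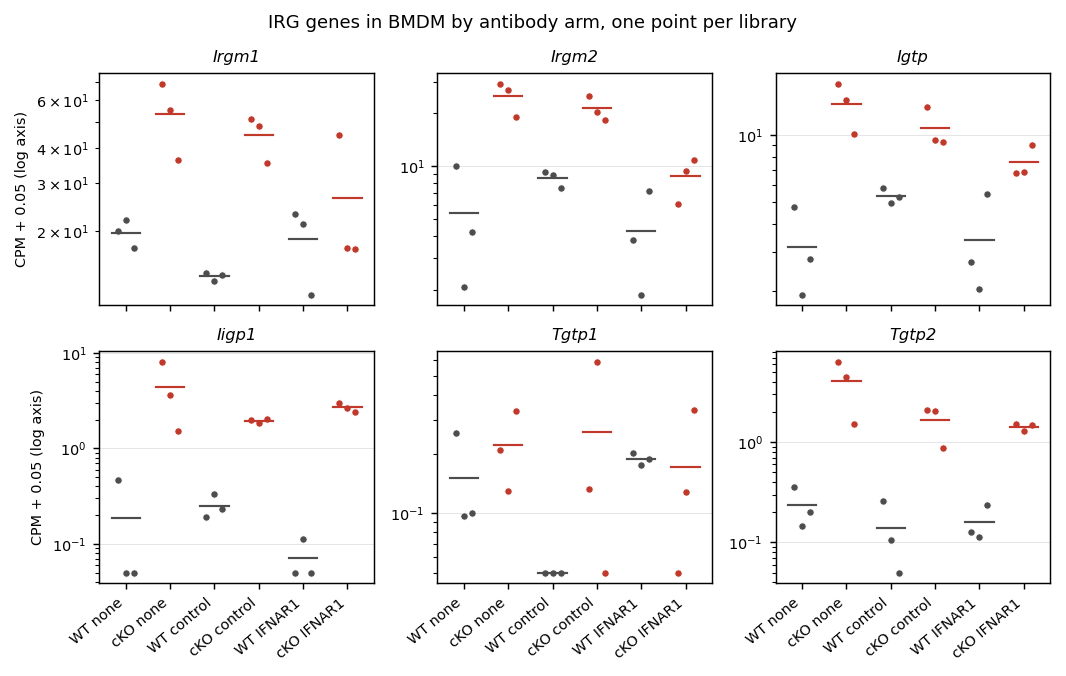
CPM of each IRG in WT (grey) and H3.3cKO (red) BMDMs from the 3 culture conditions, no antibody, isotype control and IFNAR1 antibody. Points are libraries, horizontal lines are group means, and the log axis shows CPM plus 0.05. Iigp1 in H3.3cKO stays between 1.47 and 8.11 CPM in all 9 libraries and at 0.413 CPM or less in all 9 WT libraries.

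Without antibody, Iigp1 measured 0.413, 0 and 0 CPM in WT and 8.11, 3.60 and 1.47 CPM in H3.3cKO (4.97 ± 0.83, adjusted p = 0.00277). Tgtp2 measured 0.310, 0.0941 and 0.152 CPM in WT and 6.35, 4.41 and 1.47 CPM in H3.3cKO (4.43 ± 0.62, adjusted p = 0.000858). Igtp measured 4.70, 1.88 and 2.73 CPM in WT and 16.9, 14.3 and 10.03 CPM in H3.3cKO (2.14 ± 0.36, adjusted p = 0.0029). Every H3.3cKO library lay above every WT library for these genes and, as 20.2% of all genes, for Irgm1 (1.44 ± 0.34, adjusted p = 0.0197) and Irgm2 (2.21 ± 0.48, adjusted p = 0.0131). Leaving out a library left 3 to 5 of the calls, with 3 without WT replicate 2. All 8 WT counts of Iigp1 were in replicate 1, and without 1 library its log2 fold change ran from 4.16 to 9.21, the latter against WT libraries at 0 and so no bound. That of Irgm2 ran from 1.82 (without WT replicate 2) to 3.005 (without WT replicate 1).

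With control antibody, Iigp1 measured 0.140, 0.283 and 0.183 CPM in WT and 1.91, 1.81 and 1.97 CPM in H3.3cKO (3.15 ± 0.85, adjusted p = 0.045). Irgm1 measured 14.001, 13.1 and 13.8 CPM in WT and 51.1, 48.2 and 35.4 CPM in H3.3cKO (1.72 ± 0.35, adjusted p = 0.00925), and Tgtp2 was higher by 4.03 ± 0.75 (adjusted p = 0.00516). Irgm2 (1.31 ± 0.47, adjusted p = 0.152) and Igtp (1.02 ± 0.35, adjusted p = 0.132) missed the threshold, and all 5 genes had every H3.3cKO library above every WT library, as did 18.3% of all genes. Without WT replicate 1 the log2 fold change of Tgtp2 was 5.29. At most 2 of the calls were left when any single library was left out, and none without WT replicate 2 (Irgm1 adjusted p = 0.0595, Tgtp2 adjusted p = 0.0504). Over all alternatives the adjusted p of Irgm1 ran from 5.55e-05 to 0.0595 and that of Tgtp2 from 0.000319 to 0.0504.

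With IFNAR1 antibody, Iigp1 measured 2.98, 2.60 and 2.38 CPM in H3.3cKO, with 105 counts over 3 libraries, against 1 count over 3 WT libraries. The ratio was 171 with a 95% counting interval of 30.1 to 6827 (exact binomial), and the fitted log2 fold change of 6.83 ± 1.09 (adjusted p = 0.006) depends on that 1 count (6.27 without WT replicate 1, 8.49 without WT replicate 2). Tgtp2 measured 0.0769, 0.0627 and 0.185 CPM in WT and 1.46, 1.26 and 1.43 CPM in H3.3cKO (3.57 ± 0.69, adjusted p = 0.0239). Igtp did not overlap either (1.15 ± 0.36, adjusted p = 0.213), as was so for 4.19% of all genes. Irgm1 measured 23.03, 21.1 and 11.7 CPM in WT and 44.6, 17.2 and 17.2 CPM in H3.3cKO (0.51 ± 0.34, adjusted p = 0.569), so that the genotypes overlapped. Without WT replicate 1, and in a fit of the IFNAR1 antibody libraries alone, neither passed, with adjusted p = 0.0569 for Iigp1 and 0.132 for Tgtp2 in the former. Their adjusted p ran from 1.86e-05 to 0.0731 and from 0.000575 to 0.179 over all alternatives.

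Set against control antibody within H3.3cKO, IFNAR1 antibody gave log2 fold changes of −0.77 ± 0.34 for Irgm1, −1.29 ± 0.47 for Irgm2, −0.52 ± 0.35 for Igtp, −0.24 ± 0.54 for Tgtp2 and 0.48 ± 0.66 for Iigp1. edgeR called 0 of the 5 (adjusted p from 0.14 to 0.843, with 4.03% of all genes called), 2 had an unadjusted p under 0.05, and DESeq2 called 0. Irgm2 and Igtp were lower in every library with IFNAR1 antibody than in every library with control antibody (14.5% of all genes), and Iigp1 was higher (14% of all genes). In WT the same comparison called 0 of the 5 (9.89% of all genes), with 1 at an unadjusted p under 0.05 and 0 by DESeq2, and Irgm2 and Iigp1 were lower in every IFNAR1 antibody library (17.2% of all genes). The change of the H3.3cKO effect between both antibodies was −1.21 ± 0.48 for Irgm1 (adjusted p = 0.786) and 3.68 ± 1.60 for Iigp1 (adjusted p = 0.837), edgeR called 0 of the 5 and 0% of all genes, 2 had an unadjusted p under 0.05 and DESeq2 called 0. Control antibody against none called 0 of the 5 in H3.3cKO (1.46% of all genes) and 0 in WT (8.9%), with 1 at an unadjusted p under 0.05 and 0 by DESeq2 in each, and in WT Igtp was higher (21.6% of all genes) and Irgm1 lower (20.6%) in every control antibody library. These comparisons share the control antibody libraries.

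In the same cultures 7 of 8 GBPs were higher in H3.3cKO without antibody, 7 of 8 with control antibody and 2 of 8 with IFNAR1 antibody, Gbp7 and Gbp2. Usp18 was called higher under all 3 conditions. Within H3.3cKO, Gbp8, Gbp9, Stat2 and Irf9 were lower with IFNAR1 antibody than with control antibody. The 5 stromal genes, all with counts, summed in H3.3cKO to 165 to 307 CPM with control antibody, 42.9 to 87.4 CPM with IFNAR1 antibody and 36.9 to 79.2 CPM with none, and in WT to 13.1 to 225, 5.77 to 111 and 13.4 to 98.9 CPM, and their part in the results was not tested.

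The 3 sets of BMDMs, from the experiment with the highest median depth, gave the same 6 genes as upregulated in H3.3cKO each time. Irgm1, Irgm2 and Igtp were 1.52- to 2.19-fold higher, Tgtp1 and Tgtp2 3.79- to 7.49-fold, and Iigp1 4.84- to 12.1-fold. All 6 were called in each set, against 34.7%, 21% and 34.9% of all genes called in sets 1, 2 and 3 and 18%, 9.74% and 16.9% called higher. None of the 6 overlapped between genotypes in any set, where 21.3%, 20% and 20.8% of all genes lay higher in every H3.3cKO library.

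**Figure D4:**
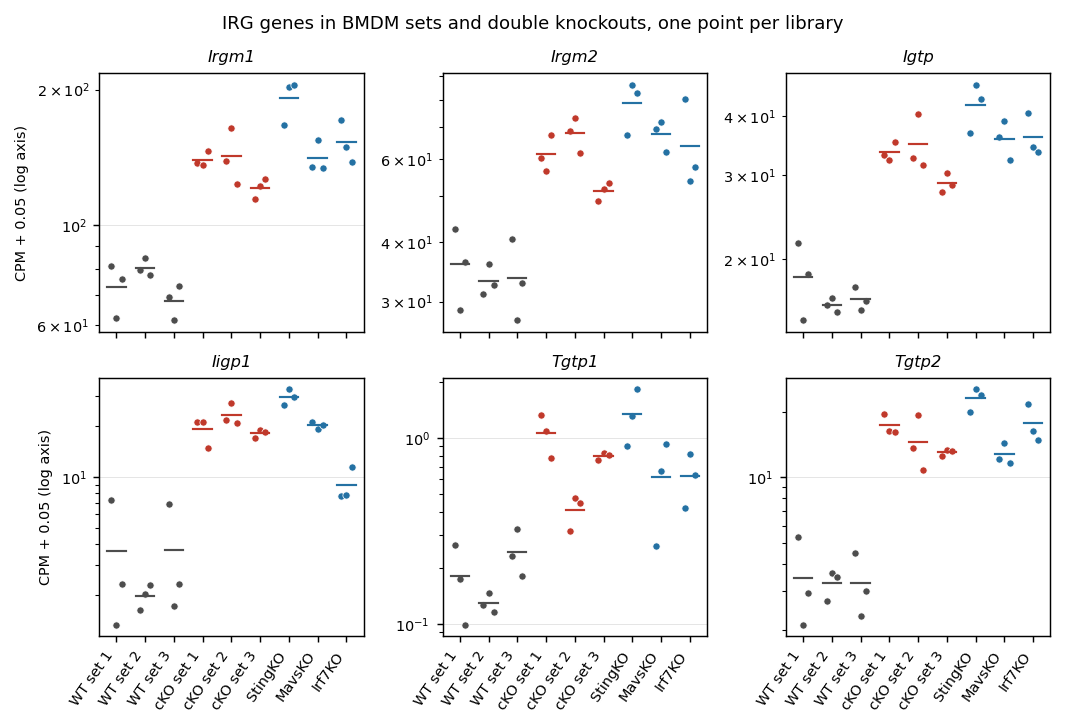
CPM of each IRG in 9 WT (grey), 9 H3.3cKO (red) and 9 double knockout (blue) BMDM libraries. Points are libraries, horizontal lines are group means, and the log axis shows CPM plus 0.05. Iigp1 in H3.3cKO:Irf7KO, at 7.60 to 11.4 CPM, lies below all H3.3cKO libraries and above all WT libraries.

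Iigp1 ranged from 14.8 to 27.2 CPM over the 9 H3.3cKO libraries. In WT it measured 7.19, 1.28 and 2.27 CPM in set 1, 1.57, 1.97 and 2.22 CPM in set 2 and 6.89, 1.68 and 2.26 CPM in set 3, so that replicate 1 of sets 1 and 3 stood out. The log2 fold change was 2.44 ± 0.40 in set 1, 3.60 ± 0.42 in set 2 and 2.27 ± 0.39 in set 3 (adjusted p = 4.52e-05, 6.37e-07 and 7.26e-05), and without WT replicate 1 it was 3.48 in set 1 and 3.20 in set 3. Irgm1 ranged from 61.4 to 84.4 CPM in WT and from 114 to 164 CPM in H3.3cKO, with log2 fold changes of 0.94 ± 0.11, 0.82 ± 0.11 and 0.83 ± 0.11. Tgtp2 ranged from 2.06 to 5.29 CPM in WT and from 10.7 to 19.4 CPM in H3.3cKO, with log2 fold changes of 2.35 ± 0.26, 2.17 ± 0.25 and 1.99 ± 0.26. The sets may not be independent: deviations from the set mean over 18083 genes correlated between WT libraries of sets 1 and 3 that share a replicate number (r = 0.386, 0.316 and 0.143, against −0.342 to 0.106 for other pairs of these sets), in H3.3cKO the same pairs gave 0.242, −0.00684 and 0.142 (other pairs −0.242 to 0.141), and the labels do not say whether they share mice. GBPs were higher in H3.3cKO for 4, 8 and 4 of 8 genes in sets 1, 2 and 3. Neutrophil and granule genes (all 9 with counts) summed to 61.5 to 181 CPM in WT and 161 to 358 CPM in H3.3cKO, with 6, 3 and 6 of 8 genes tested called higher in sets 1, 2 and 3. The 5 dendritic cell genes (all with counts) summed to 1.49 to 5.68 CPM in WT and 4.73 to 13.8 CPM in H3.3cKO, with 4 of 5 called higher in each set, and of 6 B cell genes (2.69 to 6.90 CPM against 5.90 to 14.7 CPM, all with counts) 4, 1 and 4 were called higher. Of 8 macrophage genes, 2, 2 and 3 were called lower and 1, 0 and 1 higher in sets 1, 2 and 3. Their part in the result was not tested.

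The double knockouts asked which sensor or factor the rise in H3.3cKO needed. All 3 were compared with the same 9 H3.3cKO libraries, so the comparisons share them, and the labels tie no double knockout to a set. All 6 IRGs were called higher than in WT in each double knockout, against 40.3%, 42.6% and 31.5% of all genes called in H3.3cKO:StingKO, H3.3cKO:MavsKO and H3.3cKO:Irf7KO and 20.5%, 21.8% and 14.8% called higher. They also lay above every WT library, except Tgtp1 in H3.3cKO:MavsKO, as did 9.27%, 8.56% and 4.88% of all genes. In the same order, 1, 3 and 7 of 8 macrophage genes were called lower than in WT and 2, 1 and 0 higher. The part of these genes in the result was not tested. Against H3.3cKO, 5 IRGs were higher without Sting, none passed without Mavs, and Iigp1 was lower without Irf7.

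Sting is the adaptor through which cytosolic DNA induces type I interferon. In H3.3cKO:StingKO, Irgm1 measured 167, 202 and 205 CPM, above all 9 H3.3cKO libraries, with a log2 fold change of 0.51 ± 0.09 (adjusted p = 8.08e-05). Tgtp2 measured 19.8, 25.2 and 23.9 CPM, also above all 9 (0.63 ± 0.18, adjusted p = 0.00848). Irgm2 (0.40 ± 0.12, adjusted p = 0.0101), Igtp (0.39 ± 0.09, adjusted p = 0.00204) and Tgtp1 (0.99 ± 0.28, adjusted p = 0.00816) were higher with overlapping libraries, and Iigp1, at 26.7, 32.9 and 29.8 CPM, was not called (0.58 ± 0.28, adjusted p = 0.109). Of all genes 36.1% were called and 18.9% called higher, and 11.6% lay above every H3.3cKO library. The number of IRGs called depended on the reference, with 2 against set 1 alone, 3 against set 2 alone and 4 against set 3 alone, and Irgm1 was called against each. It fell to 3 without H3.3cKO:StingKO replicate 2. Of 8 GBPs 5 were higher. The 5 stromal genes, all with counts, summed to 164 to 202 CPM in H3.3cKO:StingKO and 23.7 to 70.0 CPM in the H3.3cKO sets, with 4 of 5 called higher, as were 5 of 8 macrophage genes, and their part was not tested.

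Mavs is the adaptor for cytosolic RNA sensing. In H3.3cKO:MavsKO, Irgm1 measured 135, 154 and 134 CPM and Iigp1 20.96, 19.2 and 20.2 CPM, both within the H3.3cKO range. The log2 fold changes ran from −0.22 ± 0.19 for Tgtp2 to 0.18 ± 0.12 for Irgm2, with 0.07 ± 0.09 for Irgm1 and 0.01 ± 0.29 for Iigp1. edgeR called 0 of the 6 (8.79% of all genes), 0 had an unadjusted p under 0.05, and DESeq2 called 0. Of 8 GBPs 0 were called. The 5 stromal genes, all with counts, summed to 82.7 to 294 CPM against 23.7 to 70.0 CPM in the H3.3cKO sets, with 5 of 5 called higher. Neutrophil and granule genes, all 9 with counts, summed to 62.7 to 127 CPM against 161 to 358 CPM, with 6 of 8 tested called lower. Of 5 dendritic cell genes 2 were called lower, and of 8 macrophage genes 1 was called higher. Their part was not tested.

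Irf7 amplifies type I interferon production. In H3.3cKO:Irf7KO, Iigp1 measured 7.60, 7.75 and 11.4 CPM, below all 9 H3.3cKO libraries and above all 9 WT libraries, with log2 fold changes of −1.16 ± 0.31 against H3.3cKO (adjusted p = 0.0191) and 1.61 ± 0.31 against WT (adjusted p = 0.000257). It was the 1 gene of 6 called against H3.3cKO, where 9.85% of all genes were called and 5.5% called lower. Of all genes 4.3% lay below every H3.3cKO library and 4.88% above every WT library. The other effector genes did not follow, with Tgtp2 at 21.7, 16.3 and 14.8 CPM (0.25 ± 0.19, adjusted p = 0.458) and Tgtp1 at −0.16 ± 0.32 (adjusted p = 0.817). The difference between Iigp1 and the other members was not tested. Against set 2 alone Iigp1 was called (−1.38, adjusted p = 0.0086), and against set 1 alone (−1.09, adjusted p = 0.0653) and set 3 alone (−1.02, adjusted p = 0.222) it was not, although set 3 alone was counted on the same gene list version as H3.3cKO:Irf7KO. In the same comparison 8 of 8 neutrophil and granule genes tested and 4 of 6 B cell genes were called lower, with summed levels of 89.3 to 127 CPM (all 9 genes with counts) against 161 to 358 CPM and 3.68 to 5.61 CPM (all 6 with counts) against 5.90 to 14.7 CPM, and H3f3a (−0.91 ± 0.13, adjusted p = 4.67e-05) and H3f3b (−0.73 ± 0.14, adjusted p = 0.00148) were lower too, and their part in the result was not tested. Over all alternatives the log2 fold change of Iigp1 ran from −1.38 to −1.02 and the adjusted p from 2.11e-20 to 0.222. It was also not called without H3.3cKO:Irf7KO replicate 1.

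**Figure D5:**
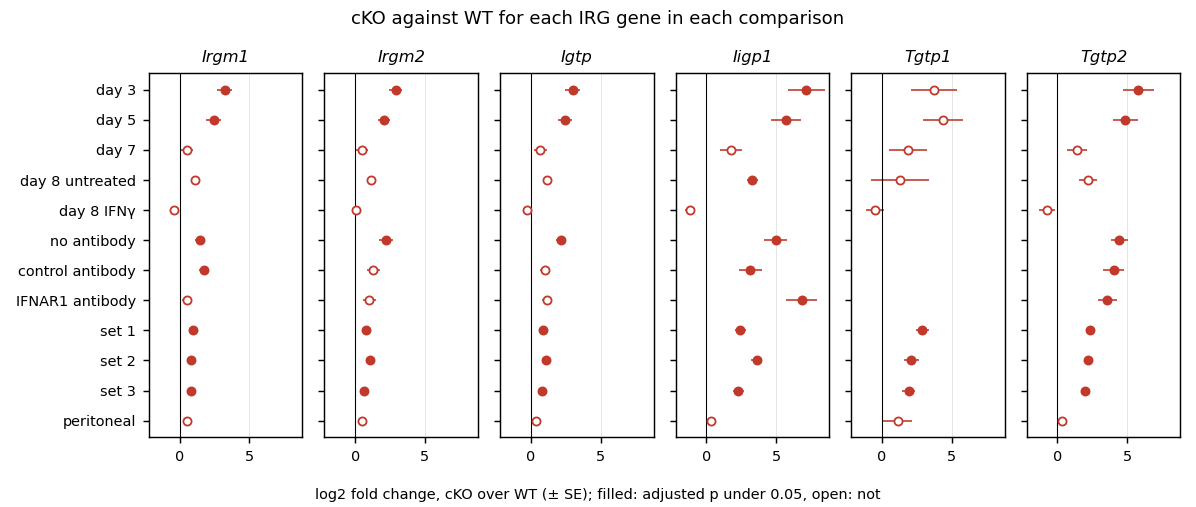
Log2 fold changes of the 6 IRGs between H3.3cKO and WT in 12 comparisons (rows), with SE as bars. Filled points had an adjusted p under 0.05 and open points did not, and Tgtp1 was not tested in the antibody experiment. Iigp1 reaches 7.15 at day 3 and lies at −1.15 with IFNγ, and the BMDM sets are filled for all 6 genes.

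Levels between genes were compared as CPM per kb of exon. They take no account of the dropped reads that fit both Tgtp1 and Tgtp2, so ranks and shares are uncertain. In untreated WT at day 8 the regulatory genes led, with Irgm1 at 12.0, Irgm2 at 9.89 and Igtp at 8.88 CPM per kb, followed by Tgtp2 at 1.62, Iigp1 at 0.389 and Tgtp1 at 0.0407 CPM per kb. Irgm2 and Igtp overlapped across libraries, and the other neighbours did not. With IFNγ the order in WT became Iigp1 at 496, Igtp at 399, Irgm1 at 203, Irgm2 at 151, Tgtp2 at 148 and Tgtp1 at 53.1 CPM per kb, with overlap only between Irgm2 and Tgtp2. Iigp1 thus went from 1.18% to 34.2% of the summed level of the 6 genes. In H3.3cKO with IFNγ Igtp led with 33.8% and Iigp1 held 22.4%, and all neighbours overlapped. In H3.3cKO at day 3 the order was Irgm1 at 25.2, Igtp at 22.2, Irgm2 at 15.96, Tgtp2 at 3.59, Iigp1 at 3.13 and Tgtp1 at 0.188 CPM per kb, with overlaps among the first 3 and between Tgtp2 and Iigp1. In peritoneal WT macrophages Igtp (23.2) and Irgm2 (19.1) overlapped and stood above Irgm1 (11.6 CPM per kb).

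The genes most like the IRGs were named by Pearson's r between mean log2 CPM profiles over the 27 groups, each centred within its experiment, among 11165 genes tested in all 5 experiments. Groups of an experiment share a scaling and the IFNγ groups are far from the rest, so r is a description. Nearest to the mean of the 6 were Ifi47 (0.990), which itself encodes an IRG (Irgd), Tnfsf10 (0.980), the gene of the death ligand TRAIL, Gm12250 (0.973), Phf11b (0.973) and Nlrc5 (0.971), an activator of MHC class I genes. Irgm1 was nearest to Ifi47 (0.982) and Dtx3l (0.980), Irgm2 to Parp12 (0.985) and Gm12250 (0.983), and Igtp to Batf2 (0.977) and Ifi47 (0.975). Iigp1 was nearest to Ifi47 (0.978) and Tnfsf10 (0.973), Tgtp2 to Phf11b (0.981) and Parp9 (0.978), and Tgtp1 to Nt5c3 (0.964) and Pla2g16 (0.947). Among the 6 themselves r ran from 0.762 for Tgtp1 and Tgtp2 to 0.969 for Igtp and Iigp1.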

How the data were processed

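Gene-level read counts of 81 RNA-seq libraries were used as the authors deposited them. Per the labels and the study's methods, reads were trimmed with Cutadapt and aligned to mm10 with STAR, and BMDM libraries were made with a rRNA depletion kit and peritoneal libraries with SMART-Seq v4. The deposited STAR counts hold uniquely mapped reads overlapping exactly 1 gene, and the unstranded column 2 was used. Rows for reads not counted for a gene (unmapped, mapped to several places, on no gene or on several genes, 18.1% to 78.1% of reads) stayed out of library sizes. Depth was 3614967 to 45564225 gene counts, and intervals cover counting error only.

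Groups came from the labels. A total of 2 day 8 H3.3cKO libraries, whose title and library name conflict, entered no group. Of 77 pairs of libraries of a group none agreed within sampling noise (lowest chi-square per degree of freedom 3.33). For each of the 5 experiments 1 model over all its groups was fitted with edgeR 4.0.16 (TMM scaling, filterByExpr with a minimum count of 10 and a minimum total of 15, quasi-likelihood F test) in R 4.3.3. P-values were adjusted by Benjamini-Hochberg over all 12361 to 18083 genes of an experiment and called under 0.05. Standard errors were derived from the F statistic, 3 interactions were fitted as contrasts, and CPM used the TMM library sizes. The code of the test was run on simulated counts with 200 changed genes. These were drawn independently with the same spread for all genes, so the run does not show how the test behaves at the spread of these libraries. Labels call replicates biological but name no mice, so p-values measure the spread between these libraries. Replicate numbers were read as a sign of pairing where every pair's deviations from the group means correlated over 0.1. This held for 6 of 22 comparisons between groups that share numbers, among them H3.3cKO against WT at days 3 and 7. The main models held no term for the replicate number, so their p-values are unpaired also in these comparisons. The replicate block was run only as an alternative. For the double knockouts, which no label ties to a set, the 9 libraries of the 3 sets served together as reference.

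All 6 genes are described, with H3f3a, H3f3b, Lyz2, Tmem173, Mavs and Irf7 as label checks. Of the pathway lists at most 4 called genes with the largest changes were to be named per list, and the genes most like the members were the 5 nearest to the mean profile and the 2 nearest to each member. Genes named beyond these (single GBPs, Irf1 with IFNγ in H3.3cKO) were chosen after their values were seen. The members and lists were chosen with earlier results of these data known. Alternatives were DESeq2 1.42.0, RLE scaling, other filters, the replicate block, the strand column, summed Tgtp1 and Tgtp2, only the groups compared, each library left out, other references, and the placement of the 2 conflicting libraries. Some genes of the transcription factor list are not reported here.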

Additional observations from a re-analysis of the deposited data

Results flagged for a closer look

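The 2 day 8 H3.3cKO libraries with conflicting labels entered no comparison, and all IRG levels but 1 stood above the highest untreated WT library, which measured 74.9 CPM for Irgm1, 39.3 for Irgm2, 20.4 for Igtp, 2.36 for Iigp1, 0.175 for Tgtp1 and 5.93 for Tgtp2. The library titled as IFNγ-treated but named as untreated, with 9674853 gene counts, held 119.8 CPM of Irgm1, 66.4 of Irgm2, 35.0 of Igtp, 15.3 of Iigp1 and 15.8 of Tgtp2, and its Tgtp1, at 0.163 CPM, was not above WT. The library titled as untreated but named as IFNγ-treated, with 10498769 gene counts, held 1225 CPM of Irgm1, 904 of Irgm2, 1073 of Igtp, 2074 of Iigp1, 231 of Tgtp1 and 486 of Tgtp2. No group was assigned to either from these values.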

How the results depend on the processing

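All 6 IRGs in each BMDM set and the 5 called at day 3 kept their calls and direction under every alternative run. The number of IRGs called moved in other comparisons. With only the groups compared in the model it was 0 for H3.3cKO against WT at day 5, 5 untreated at day 8, 5 with control antibody, 0 with IFNAR1 antibody and 1 for control antibody against none in WT. With DESeq2 it was 5 for the change of the H3.3cKO effect between days 3 and 7, 5 for WT day 7 against day 5, 3 untreated at day 8, 1 between genotypes under IFNγ and 1 for the difference in the IFNγ response. Without the filter on low counts these were 5, 5, 5, 2 and 4. With the replicate block it was 2 for the change between days 3 and 7 and 4 for WT day 7 against day 5, and the block moved no other count, also not with the H3.3cKO IFNγ numbers crossed (added after seeing the data, since the pair correlated at −0.187), which left 6 called. With the conflicting libraries placed by title it was 0 untreated at day 8, 0 for IFNγ in WT and 0 for IFNγ in H3.3cKO, and by library name 1 for the difference in the IFNγ response. With Tgtp1 and Tgtp2 summed it was 1 with IFNAR1 antibody. H3.3cKO:StingKO had 2 against set 1 alone and 3 against set 2 alone, and H3.3cKO:Irf7KO 0 against set 1 alone and 0 against set 3 alone. The cause of these moves was not tested.

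Leaving out 1 library each, the number called ran from 0 to 6 at day 5, 0 to 4 for WT day 7 against day 5, 0 to 1 untreated at day 8, 0 to 6 between genotypes under IFNγ, 0 to 6 for the difference in the IFNγ response, 3 to 5 without antibody, 0 to 2 with control antibody and 0 to 3 with IFNAR1 antibody (3 without WT replicate 3). It ran from 0 to 1 for IFNAR1 against control antibody in H3.3cKO, 0 to 2 in WT, 0 to 2 for control antibody against none in WT, 3 to 5 for H3.3cKO:StingKO and 0 to 1 for H3.3cKO:Irf7KO.

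Directions turned almost only where the change was not called. Among log2 fold changes, H3.3cKO day 5 against day 3 with the replicate block gave −0.12 for Irgm1, −0.036 for Irgm2 and −0.19 for Igtp. H3.3cKO day 7 against day 5 gave for Irgm1 −0.012 with DESeq2, −0.011 with RLE scaling, −0.0044 without filter and −0.0043 with only the groups compared, and with the block 0.092 for Igtp and 0.47 for Iigp1. Both strand columns of the counts had near equal totals in every experiment, such as 174720328 and 171277733 in the time course, against 313834684 in column 2. The strand column with the larger total thus held a part of the reads rather than those of 1 gene strand. The strand column gave −1.34 for Tgtp1 untreated at day 8, 0.93 for Tgtp1 in the difference of the IFNγ response, −1.34 for Tgtp2 between IFNAR1 and control antibody in WT, 0.43 for Tgtp2 between control antibody and none in WT, 0.999 for Tgtp2 in the change of the H3.3cKO effect between antibodies and 0.027 for Tgtp1 in H3.3cKO:Irf7KO. Under IFNγ, Irgm2 between genotypes was −0.42 by title and −0.030 with the block, Igtp 0.0030 by library name, and the IFNγ change of Tgtp2 in H3.3cKO −0.00028 by title, the 1 called change that turned. H3.3cKO:MavsKO against set 2 alone gave −0.011 for Irgm1, −0.0057 for Irgm2, −0.21 for Iigp1 and 0.66 for Tgtp1, with Iigp1 at −0.0034 without filter and −0.0071 with only the groups compared. H3.3cKO:Irf7KO against set 2 alone gave −0.089 for Irgm2 and 0.69 for Tgtp1.

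Leaving out 1 library turned the direction of these log2 fold changes, given as lowest to highest. Tgtp1 in WT day 5 against day 3 ran from −0.48 to 3.13. In H3.3cKO, day 5 against day 3 ran from −0.72 to 0.53 for Irgm1, −0.69 to 0.56 for Irgm2, −0.99 to 0.46 for Igtp, −0.93 to 1.35 for Iigp1, −2.86 to 1.72 for Tgtp1 and −0.72 to 1.32 for Tgtp2. Day 7 against day 5 ran from −0.33 to 0.92, −0.22 to 1.03, −0.51 to 0.94, −0.65 to 1.64, −1.73 to 2.78 and −0.28 to 1.70 in the same order. Between genotypes under IFNγ, Irgm1 ran from −1.29 to 0.18, Irgm2 −0.62 to 0.57, Igtp −1.25 to 0.36, Tgtp1 −3.36 to 0.34 and Tgtp2 −3.07 to 0.088. With IFNAR1 antibody Irgm1 ran from −0.11 to 0.74. Between IFNAR1 and control antibody Tgtp2 ran from −0.54 to 0.045 in H3.3cKO and −0.35 to 1.51 in WT, and the change of the H3.3cKO effect from −0.64 to 0.30 for Irgm2, −0.12 to 0.65 for Igtp and −1.73 to 0.11 for Tgtp2. H3.3cKO:MavsKO ran from −0.041 to 0.053 for Iigp1 and −0.62 to 0.19 for Tgtp1, and H3.3cKO:Irf7KO from −0.10 to 0.21 for Irgm2 and −0.44 to 0.067 for Tgtp1.

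With 2 H3.3cKO libraries a group, the day 8 comparisons between genotypes rest on single libraries, and leaving 1 out assumes that the other varies like the remaining groups. Tgtp1 rested on at most 3 counts over the 3 WT libraries at days 3 and 5, where its call at day 5 came and went with the filter and with 1 H3.3cKO library, and its low level kept it out of the antibody tests.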
